A study of Mus musculus with 847 samples.

Results

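The Hox genes of the mouse were followed through 15 brain regions. The members were all genes of the count table whose symbol is Hoxa, Hoxb, Hoxc or Hoxd followed by a number, which gave 39 of 21076 genes, the whole mammalian set. The libraries came from 59 C57BL/6JN mice, an inbred strain for which the labels name no transgene or treatment, and each library was made from the RNA of 1 dissected region of 1 mouse, so that 847 libraries were measured, 51 to 59 per region. There were 5 females and 5 males at 3, 12, 15 and 18 months of age, 5 females and 6 males at 21 months, 5 males at 26 months and 3 males at 28 months. The regions were olfactory bulb, motor cortex, visual cortex, entorhinal cortex, anterior and posterior hippocampus, subventricular zone, caudate putamen, corpus callosum, choroid plexus, thalamus, hypothalamus, cerebellum, pons and medulla. Levels are given in CPM, the reads of a gene per 1000000 reads counted in the library.

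Hox genes encode homeodomain transcription factors that give the cells of the embryo their position along the head-to-tail axis. They lie in clusters, and a gene's place in its cluster matches where it is switched on: the low-numbered genes at the 3′ end reach furthest forward, into the hindbrain, and the high-numbered ones at the 5′ end act in the trunk and tail. Genes of the same number in different clusters are paralogues that arose by duplication of an ancestral cluster. The forebrain, the midbrain and the front of the hindbrain, from which the cerebellum grows, develop without Hox expression. Retinoic acid starts the expression, Polycomb proteins hold unused Hox genes silent, Trithorax proteins keep used ones active, and Pbx, Meis and Pknox proteins bind DNA together with the Hox proteins.

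In the GRCm38 annotation the 11 Hoxa genes lie on the minus strand of chromosome 6 (52155590 to 52260880), the 10 Hoxb genes on the plus strand of chromosome 11 (96194316 to 96368256), the 9 Hoxc genes on the plus strand of chromosome 15 (102921103 to 103036852) and the 9 Hoxd genes on the plus strand of chromosome 2 (74668310 to 74765142). All 39 are annotated as protein coding. The annotation by which the reads were counted is not given, so the exons named here are those of the GRCm38 annotation. The libraries did not mark strand. Reads from members such as Hoxa3, Hoxa7, Hoxa11, Hoxb2, Hoxb3, Hoxb5, Hoxd3 and Hoxd4 therefore cannot be told apart from those of an antisense transcript where the exons overlap, for example Hoxb3os over Hoxb2 and Hoxb3, or Hoxb5os over Hoxb5. Exons of Hoxd3 and Hoxd4, and of Hoxc5 and Hoxc10, also overlap on the same strand.

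The 4 upstream sequences below set members that were read in nearly every medulla library beside Hoxd10, which was not read there. Of the members shown with reads, only Hoxd4 lies in the same cluster as Hoxd10. Each holds the 250 bases before the RefSeq start of the gene in GRCm38.p6, in the direction of transcription, and the capitals mark CpG dinucleotides. Hoxa2 (chr6:52164832-52165081, minus strand), Hoxa5 (chr6:52204588-52204837, minus strand) and Hoxd4 (chr2:74721728-74721977, plus strand) were among the members with reads in medulla, whereas Hoxd10 (chr2:74691641-74691890, plus strand) had no read in medulla or pons.
Hoxa2: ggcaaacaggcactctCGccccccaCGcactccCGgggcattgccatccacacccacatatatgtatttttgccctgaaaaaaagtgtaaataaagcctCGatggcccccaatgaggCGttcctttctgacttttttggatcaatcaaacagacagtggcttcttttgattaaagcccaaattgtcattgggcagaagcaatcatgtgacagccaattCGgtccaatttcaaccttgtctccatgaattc
Hoxa5: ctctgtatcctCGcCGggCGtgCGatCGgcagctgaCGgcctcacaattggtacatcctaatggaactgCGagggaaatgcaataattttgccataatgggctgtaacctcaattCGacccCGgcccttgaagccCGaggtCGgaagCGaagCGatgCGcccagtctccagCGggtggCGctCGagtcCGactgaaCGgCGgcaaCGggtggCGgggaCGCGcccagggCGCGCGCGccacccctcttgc
Hoxd4: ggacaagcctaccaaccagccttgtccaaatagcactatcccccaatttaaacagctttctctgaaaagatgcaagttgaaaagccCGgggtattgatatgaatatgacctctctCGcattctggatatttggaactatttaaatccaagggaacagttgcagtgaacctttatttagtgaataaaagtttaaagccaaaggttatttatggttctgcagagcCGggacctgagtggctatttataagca
Hoxd10: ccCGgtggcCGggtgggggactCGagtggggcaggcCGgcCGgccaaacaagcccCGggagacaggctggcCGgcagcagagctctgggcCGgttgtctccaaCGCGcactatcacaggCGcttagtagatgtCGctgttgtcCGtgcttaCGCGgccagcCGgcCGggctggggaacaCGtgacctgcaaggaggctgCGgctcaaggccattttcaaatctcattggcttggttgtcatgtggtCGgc

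Those windows hold 6 CpG in Hoxa2, 28 in Hoxa5, 3 in Hoxd4 and 20 in Hoxd10, so the gene without reads lay within the range of the others. RefSeq windows matched 22 of the 39 members, with 24 windows because Hoxa10 and Hoxd11 have 2 starts. Their median was 12.5 CpG (range 2 to 35), against 6 in all 32851 windows of the table, and it was 12 for paralogue groups 1 to 5, 9.5 for groups 6 to 8 and 13 for groups 9 to 13. CpG density upstream thus did not follow the order of the levels described below. The motif CCAAT was found on either strand in 58.3% of the members' windows and in 33.9% of all windows. The Hox-Pbx motif TGATNNAT was found in 16.7% against 7.68%, and TATAAA in 16.7% against 12.4%. The retinoid direct repeats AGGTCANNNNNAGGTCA and AGGTCANNAGGTCA were in no member's window and in 0.00913% of all windows each. TATAAA and the other motifs may overlap each other, and a match is a description of letters, not a binding site.

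Between 481444 and 26756735 reads were counted per library (median 6716032). The 58 medulla libraries held 1335731 to 23232153 reads and the 51 pons libraries 1133290 to 25288110, and 51 mice had both. By correlation over the 2000 most variable genes, 13 of 847 libraries were nearest to a region other than their own. None of these was a medulla library, and 1 was a pons library, of mouse 41, whose correlation was 0.9742 with medulla and 0.9730 with pons. Among markers of hindbrain neurons, the glycine transporter gene Slc6a5 had a median of 113 CPM in medulla and 16.1 in pons, and Tph2, of serotonin synthesis, 96.4 and 145. The forebrain gene Emx1 had a median of 0 in both. Neurod6, another marker of the telencephalon, was however read in every pons library, from 2.89 to 28.1 CPM. Compared with thalamus, Neurod6 was higher in pons (log2 difference 5.65) and the telencephalon marker Tbr1 lower (-4.03).

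Hox reads were concentrated in medulla and pons. These held 94746 of the 97219 Hox reads of the series (97.5%), although they made up 17.1% of all reads. In medulla the 39 members together ran from 21.2 CPM in the lowest library over a median of 79.7 to 402 in the highest, and in pons from 2.28 over 55.2 to 134. In the other 13 regions, 738 libraries together held 2473 Hox reads (0.477 CPM pooled), the highest library had 8.28 CPM, and 223 libraries had no Hox read at all. Every medulla library was above every library of those 13 regions. The lowest pons library was below 7 of them. Since whole tissue was measured, fewer cells of a type and less RNA per cell cannot be told apart in any of these values.

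**Figure D1:**
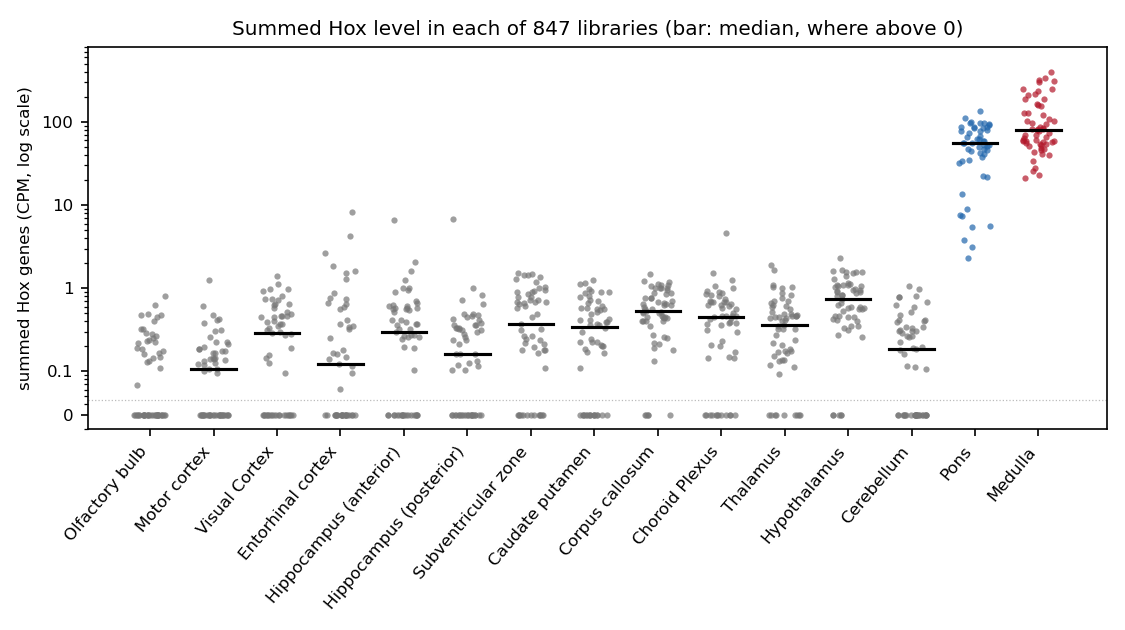
Summed level of the 39 Hox genes in each of the 847 libraries, by region, in CPM on a log scale with libraries without a Hox read drawn at 0; bars mark medians above 0. Medulla (median 79.7) and pons (55.2) stand above the other 13 regions, whose medians lie between 0 and 0.738.

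The cerebellum lay with the forebrain regions. Its 58 libraries had a median of 0.184 CPM and a highest value of 1.07, and 120 Hox reads were found in 34 of them. The medians of the forebrain regions were 0 in olfactory bulb, 0.107 in motor cortex, 0.290 in visual cortex, 0.124 in entorhinal cortex, 0.296 and 0.163 in anterior and posterior hippocampus, 0.372 in subventricular zone, 0.344 in caudate putamen, 0.527 in corpus callosum, 0.357 in thalamus and 0.738 in hypothalamus. Choroid plexus had 0.446. The spans of these 13 regions overlapped, all reaching down to 0, so neighbours in this order did not differ beyond the spread of their libraries.

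**Figure D2:**
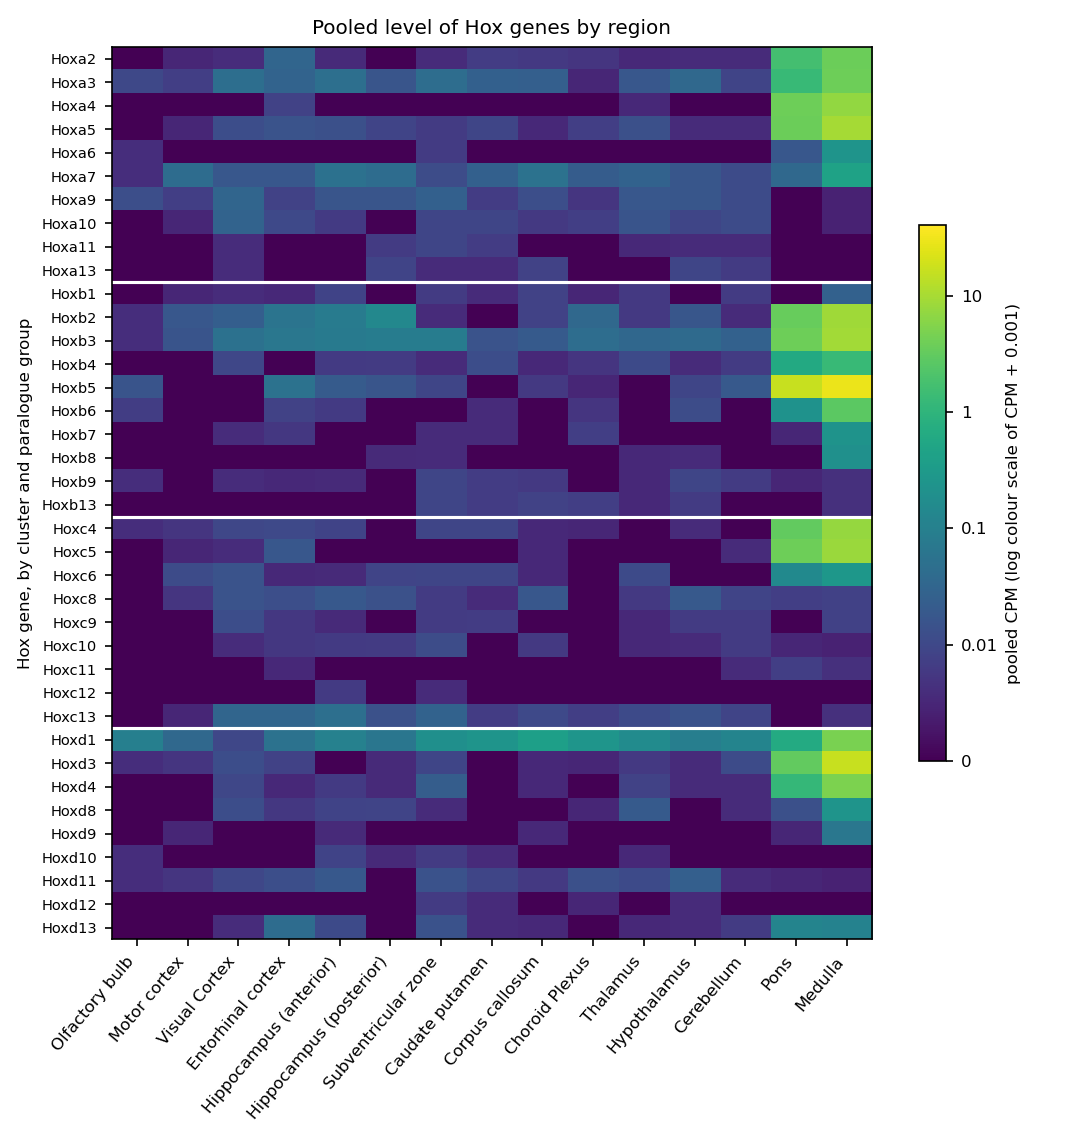
Pooled level of Hox genes (rows, by cluster and number) in each of 15 regions (columns), in CPM on a log colour scale. Medulla and pons are filled for the low-numbered members, and Hoxd1 has a low level in corpus callosum, where it had 171 reads in all libraries together.

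Hoxd1, the group 1 gene of the d cluster, gave a low signal outside the hindbrain. It had 171 reads in 47 of 57 corpus callosum libraries (median 0.395 CPM), 121 reads in 37 of 57 choroid plexus libraries (median 0.149) and 89 reads in 31 of 58 caudate putamen libraries (median 0.138). In visual cortex it had 3 reads in 3 of 56 libraries. The levels of Hoxd1 in these regions were not compared with a test.

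Single libraries account for the highest values outside medulla and pons. Mouse 59, a male of 28 months, had 6.84 CPM in posterior hippocampus, 6.57 in anterior hippocampus and 4.57 in choroid plexus. Hoxb2 (4.07, 4.27 and 1.92 CPM) and Hoxb3 (2.23, 2.13 and 1.80) made up most of each sum, while Hoxb4 and Hoxa2 had no read in any of these libraries. Entorhinal cortex of mouse 20 had 8.28 CPM from 9 members, led by Hoxb5 with 3.55, and that of mouse 40 had 4.25, led by Hoxa5 and Hoxb5. The entorhinal library of mouse 52 was nearest to medulla (r 0.942, against 0.702 with its own region), yet its Hox sum was 1.61 CPM, and 16 of its 43 Hox reads were of Hoxd13.

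Within medulla and pons the levels fell off sharply between paralogue groups 5 and 6. The 15 members of groups 1 to 5 gave 96.2% of the Hox reads in medulla and 98.8% in pons, the 8 members of groups 6 to 8 gave 3.63% and 0.909%, and the 16 members of groups 9 to 13 gave 0.164% and 0.272%. By group, medulla reads were 5.14% from group 1, 10.4% from group 2, 24.2% from group 3, 17.2% from group 4, 39.3% from group 5 and 2.71% from group 6. Pons reads were 4.09%, 10.5%, 17.2%, 18.0%, 49.1% and 0.795%. The b cluster gave 43.0% of the medulla and 50.4% of the pons Hox reads, the a cluster 21.9% and 24.6%, the c cluster 13.3% and 14.5%, and the d cluster 21.8% and 10.5%.

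**Figure D3:**
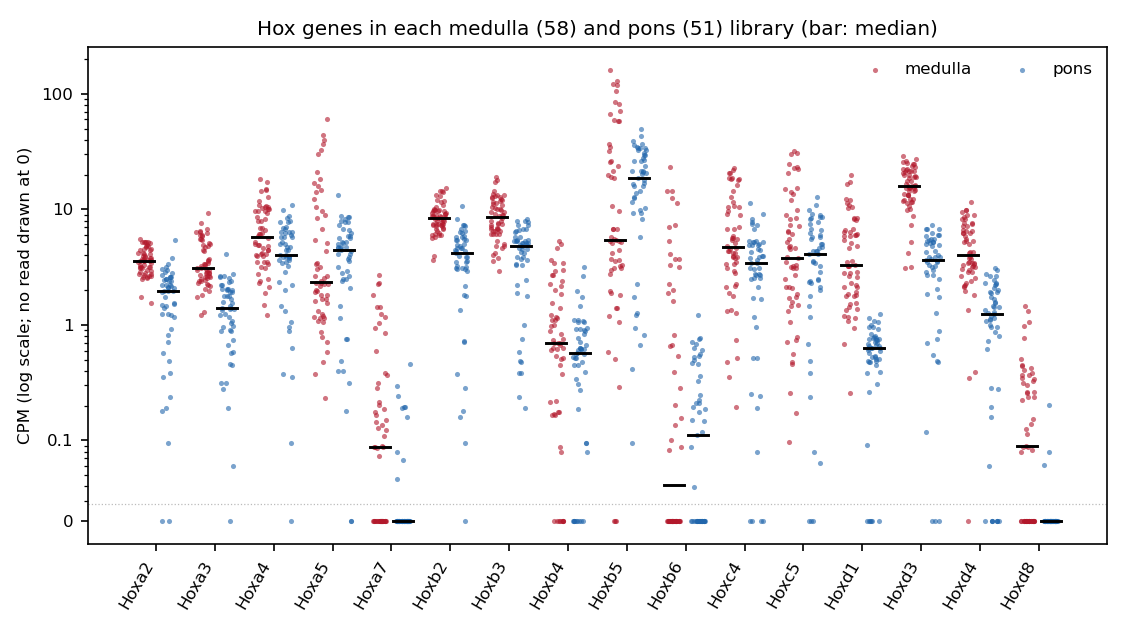
Level in each of 58 medulla (red) and 51 pons (blue) libraries of members whose median is above 0 in medulla, in cluster order, in CPM on a log scale with libraries without a read drawn at 0; bars mark medians. Hoxb5 runs from 0 to 162 in medulla and from 0.0950 to 49.9 in pons, while Hoxa2 and Hoxb2 stay within a narrow band in medulla.

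Among group 1 genes, Hoxb1 marks a single segment of the embryonic hindbrain. Hoxd1 ran from 0.256 over 3.28 to 19.7 CPM in medulla (lowest, median and highest library, in this order throughout) and from 0 over 0.632 to 1.23 in pons, so that the medulla median was above every pons library. Hoxb1 had 15 reads, in 8 medulla libraries, and none in pons.

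In group 2, whose Hoxa2 and Hoxb2 reach furthest forward in the embryo, medulla levels were the steadiest among the members. Hoxa2 ran from 1.54 over 3.61 to 5.54 CPM in medulla and from 0 over 1.97 to 5.47 in pons. Hoxb2 ran from 3.65 over 8.43 to 15.3 in medulla and from 0 over 4.17 to 10.7 in pons. The coefficient of variation over the 58 medulla libraries was 0.25 for Hoxa2 and 0.29 for Hoxb2. Both regions overlapped for both genes.

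Group 3 genes act in the caudal hindbrain and its neural crest. Hoxd3 ran from 3.12 over 15.8 to 29.2 CPM in medulla and from 0 over 3.66 to 7.30 in pons, and its coefficient of variation in medulla was 0.37. Hoxb3 ran from 2.93 over 8.54 to 19.1 in medulla and from 0.190 over 4.77 to 8.20 in pons. Hoxa3 ran from 1.22 over 3.08 to 9.32 in medulla and from 0 over 1.39 to 4.10 in pons. For each of the 3 genes the highest pons library was above the lowest medulla library.

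Group 4 genes mark the hindmost segments of the embryonic hindbrain and the spinal cord. In medulla Hoxa4 had a median of 5.82 CPM (1.22 to 18.4), Hoxc4 4.72 (0.195 to 22.7), Hoxd4 4.00 (0 to 11.6) and Hoxb4 0.702 (0 to 5.28). In pons Hoxa4 had 4.03 (0 to 11.0), Hoxc4 3.43 (0 to 11.2), Hoxd4 1.23 (0 to 3.14) and Hoxb4 0.576 (0 to 3.19). Hoxb4 was thus the lowest of its group in both regions, although it lies between the higher Hoxb3 and Hoxb5 in its cluster.

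Group 5 genes held the largest share of the reads and varied widely. Hoxb5 (ENSMUSG00000038700.4, chr11:96303336-96306121) ran from 0 over 5.47 to 162 CPM in medulla and from 0.0950 over 18.7 to 49.9 in pons. Hoxa5 ran from 0.231 over 2.37 to 60.3 in medulla and from 0 over 4.47 to 13.4 in pons, and Hoxc5 from 0.0976 over 3.81 to 31.9 and from 0 over 4.15 to 12.8. In each case the pons had the higher median and the medulla the higher maximum. The coefficient of variation in medulla was 1.49 for Hoxb5 and 1.52 for Hoxa5, and pooled over the region Hoxb5 had 29.7 CPM in medulla.

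Divided by exon length, so that genes can be set side by side, the medulla medians were 3.78 CPM per kilobase for Hoxd3, 3.65 for Hoxa4, 2.42 for Hoxb2, 2.03 for Hoxa2, 2.01 for Hoxb3, 1.96 for Hoxb5, 1.84 for Hoxc4 and 1.76 for Hoxd1. In pons Hoxb5 led with 6.72 CPM per kilobase, ahead of Hoxa4 with 2.53, Hoxa5 with 2.38, and Hoxc4 and Hoxc5 with 1.34 each. The gene with the highest median per length differed between the regions, while by the mean Hoxb5 was highest in both, with 9.30 CPM per kilobase in medulla, where Hoxd3 had 3.92, and 6.92 in pons.

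Groups 6 to 8, of the trunk, appeared in some medulla libraries. Hoxb6 had reads in 29 of 58 medulla libraries, with a median of 0.0413 and a highest value of 23.2 CPM, and in 28 of 51 pons libraries with a highest value of 1.22. Hoxa7 was read in 33 medulla libraries (highest 2.73), Hoxd8 in 33 (1.45), Hoxc6 in 21, Hoxa6 in 14 (1.97), Hoxb8 in 11 (3.07) and Hoxb7 in 9 (4.00). In pons Hoxb8 had no read, and Hoxb7 was read in 1 library. The coefficient of variation of Hoxb6 in medulla was 2.10, above that of every member of groups 1 to 5 with reads in most libraries.

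Groups 9 to 13 were near the limit of detection. Hoxd13, a gene of the digits and the tail end, had 63 reads in 23 medulla libraries and 57 reads in 20 pons libraries, more than Hoxd9, which had reads in 7 medulla libraries and 1 pons library. Hoxa11, Hoxa13, Hoxc12, Hoxd10 and Hoxd12 had no read in either region. With 3 reads as the limit that a count of 0 allows, this leaves up to 0.00511 CPM in medulla pooled over its 586940354 reads, a limit for counting error only.

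Medulla and pons were set beside cerebellum and thalamus. Pooled over libraries, Hoxd3 had 16.4 CPM in medulla and 4 reads in all of cerebellum, a ratio of 1563, and Hoxb3 9.16 CPM and 10 reads, a ratio of 349. Hoxa4 and Hoxc4 had no read in cerebellum, so against 3 reads pooled over its 58 libraries they were at least 905-fold and at least 972-fold higher in medulla. Hoxb5, Hoxc4 and Hoxc5 had no read in thalamus, and on the same basis medulla was at least 4099-fold, 1054-fold and 1137-fold higher. Of the group 1 to 5 members with more than 3 reads in both regions compared, Hoxd1 in pons over thalamus had the smallest ratio, 3.96.

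By edgeR's quasi-likelihood test with Benjamini-Hochberg adjustment over all genes, 12 of 12 members tested were higher in medulla than in cerebellum, where 48.3% of all genes were higher, and 12 of 12 were higher in medulla than in thalamus, where 41.6% of genes were. In pons 8 of 8 were higher than in cerebellum, against 47.7% of genes, and 8 of 8 higher than in thalamus, against 43% of genes. A member passed the filter on low counts through the hindbrain region alone, so these counts had to come out high and the members that failed it are not in them. Without the filter Hoxa9 and Hoxa10, each with few reads in all regions, were lower in medulla than in thalamus, and with Hoxc13 lower in pons than in cerebellum and than in thalamus. No member passed the filter in cerebellum against thalamus, where 89.6% of the genes tested were called, or in choroid plexus against thalamus, with 81.3%. In mice 16 to 56 alone 3 members passed the filter in pons against cerebellum, and 3 were higher.

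Medulla and pons differed most in the d cluster. Of 13 members tested, 11 were higher in medulla and 0 lower, against 31.1% of all genes higher and 30.7% lower. The difference (medulla minus pons, log2) was 2.94 ± 0.22 (SE) for Hoxd1, 2.29 ± 0.16 for Hoxd3 and 1.98 ± 0.20 for Hoxd4, with adjusted p of 7.7e-23, 6.7e-25 and 5.4e-16 by edgeR. Hoxa3 differed by 1.46, Hoxb2 by 1.21, Hoxb3 by 1.12, Hoxc4 by 1.11, Hoxa2 by 1.07, Hoxa5 by 0.85, Hoxc5 by 0.73 and Hoxa4 by 0.68. Hoxb5 (0.21 ± 0.34, adjusted p 0.61) did not pass the test.

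The group 5 values changed with the mice compared. Over the 102 libraries of the 51 mice that had both regions, which leaves out 7 medulla libraries, 9 members were higher in medulla. Among the libraries left out were those of mice 9, 33 and 6, with 162, 129 and 105 CPM of Hoxb5, which are 3 of the 5 highest in medulla. Hoxa5 (0.63, adjusted p 0.056 by edgeR) and Hoxc5 (0.61, adjusted p 0.055) were then not called, and Hoxb5 differed by 0.07 (adjusted p 0.87). With the mouse as a block over these same libraries, 9 members were again called higher. The differences were 0.10 for Hoxa5 (adjusted p 0.74 by edgeR), 0.34 for Hoxc5 (0.21) and -0.637 for Hoxb5 (0.089). In mice 16 to 56 alone, 9 were called and the adjusted p was 0.13 for Hoxa5 and 0.14 for Hoxc5. The counts of 9 are given without the share of all genes called under these settings. Hoxd1, Hoxd3 and Hoxd4 were called higher under each of these settings. The means of group 5 also lay in the opposite order to its medians. Hoxb5 had a mean of 25.9 ± 38.7 CPM (SD, n = 58) in medulla and 19.3 ± 12.8 (n = 51) in pons, while its median was higher in pons.

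The transcripts that run through the clusters differed like the genes beside them. Hotairm1, from the 3′ end of the a cluster, ran from 6.10 over 10.1 to 14.6 CPM in medulla and from 1.95 over 5.71 to 10.9 in pons, a difference of 0.96 on the log2 scale that passed the test. Hoxb3os ran from 7.13 over 15.4 to 28.7 and from 0.298 over 7.23 to 14.9 (1.30, called), and Hoxaas2 from 1.32 over 5.28 to 11.8 and from 0 over 3.40 to 7.63 (0.90, called). Hoxb5os ran from 0 over 0.595 to 17.0 and from 0 over 1.74 to 5.92 (0.39, adjusted p 0.31 by edgeR), and like Hoxb5 it had the higher median in pons. Hotair, from the c cluster, had 1 read in medulla and none in pons.

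Members varied together across the libraries of a region. Pearson's correlation of Hoxb5 with 18 other members over the 58 medulla libraries, on log2(CPM + 0.1), had a median of 0.765, and all 18 passed a permutation test after Benjamini-Hochberg adjustment over the 18. With Hoxc5 r was 0.955 and Spearman's rho 0.966 (permutation p 1e-05 for each, the smallest that 100000 permutations can give, adjusted 1.3e-05), and r was 0.955 without the 2 libraries farthest from the median of Hoxb5. With Hoxa5 r was 0.917 and rho 0.924 (p 1e-05 each, adjusted 1.3e-05, r without the 2 farthest 0.934). With Hoxd8 r was 0.411 and rho 0.377 (permutation p 0.00142 and 0.004, adjusted 0.0015 and 0.0042, r without the 2 farthest 0.404). The members share their library and its depth. The permutations here and below shuffled the libraries without regard to age or sex, so shared changes with age were not set apart. The correlation of Hoxb5 with the library total was -0.04 (rho 0.03, permutation p 0.78 and 0.84, adjusted 0.93 and 0.90).

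The pons libraries were divided by Hoxb5 for description. The cut was the widest gap of log2(CPM + 0.1) that left at least 6 libraries on either side. Such a rule always gives 2 sets, so the division itself is not a finding. In 9 libraries Hoxb5 lay between 0.0950 and 2.28 CPM and in the other 42 between 5.80 and 49.9, with no library between. The Hox sum was 2.28 to 13.7 CPM in the 9 and 22.1 to 134 in the 42. The 9 were of 2 of 9 mice of 3 months, 1 of 9 of 15, 1 of 9 of 18, 4 of 11 of 21 and 1 of 3 of 28 months, and of none of the 6 mice of 12 or the 4 of 26 months. Within the 42, Hoxb5 was correlated with 12 other members, and 11 of 12 passed the permutation test after adjustment over the 12, again with Hoxc5 highest (r 0.904, rho 0.913, permutation p 1e-05 each, adjusted 1.7e-05, r without the 2 farthest 0.891). Within the 9, none of 12 passed an exact permutation test, with r of -0.40 to 0.62.

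No relation between the levels in the 2 regions was detected. Over the mice whose pons library was among the 42, the correlation between medulla and pons of the same mouse lay between -0.261 and 0.195 over 13 members, and 0 of 13 passed a permutation test after adjustment.

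Genes outside the Hox clusters moved with Hoxb5, and their part in the result was not tested. Whether they are expressed in the same cells as Hoxb5 cannot be read from whole tissue. In pons Slc17a7, the vesicular glutamate transporter of cortical and pontine relay neurons, ran from 4.37 over 110 to 192 CPM and correlated with Hoxb5 at r of 0.905 within the 42 libraries and 0.942 within the 9. Irx2 (0.914), the transcription factor genes Pax6 (0.901) and Neurod2 (0.898), Cpne9 (0.919) and Deptor (0.902) were among the genes most like Hoxb5 within the 42, out of 13782 genes. Within the 9, r was lower for each of these, at 0.744 for Irx2, 0.637 for Pax6, 0.529 for Neurod2, 0.356 for Cpne9 and 0.732 for Deptor. In medulla the genes most like it out of 13683 were Mpp3 (r 0.885), the neuropeptide genes Npy (0.861), Tac1 (0.832) and Sst (0.816), Tagln3 (0.832) and Slc17a7 (0.819), and the lowest was Dmp1 (-0.774). In pons the lowest within the 42 was Cacng3 (-0.829), which had an r of 0.083 within the 9. These genes were singled out after their values were seen, over samples that share library and depth.

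**Figure D4:**
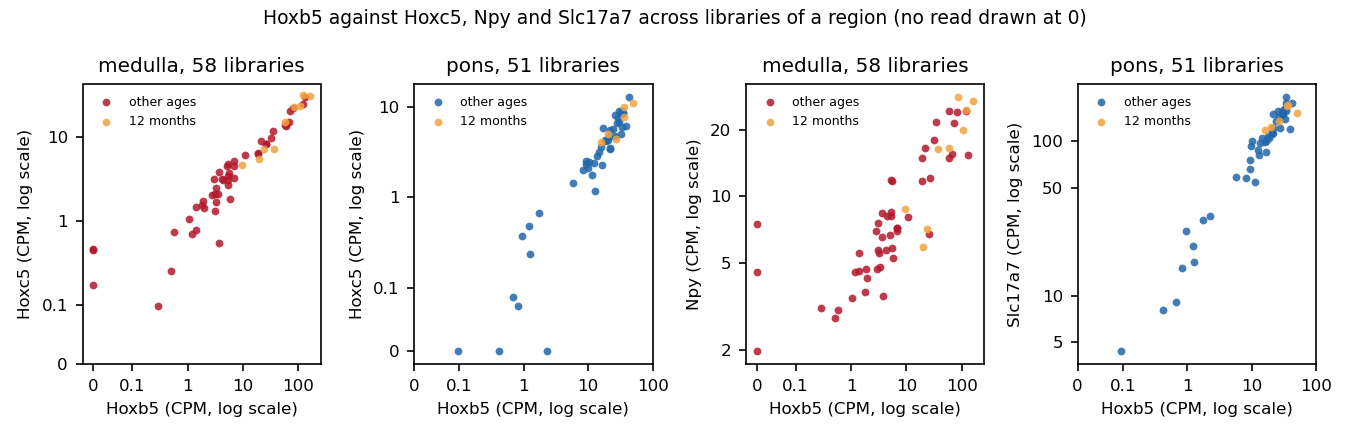
Hoxb5 level of each library against that of Hoxc5 in medulla (58 libraries) and pons (51), of Npy in medulla and of Slc17a7 in pons, in CPM on log scales with no read drawn at 0; libraries of 12 months are orange. Hoxc5 rises with Hoxb5 in both regions, and 9 pons libraries lie at or under 2.28 of Hoxb5.

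The summed levels of gene lists were also correlated with Hoxb5. Of 19 relations per region (18 lists and the library total), 11 passed the threshold in medulla and 4 in pons. These permutations too were made without regard to age or sex. The neuron list correlated with Hoxb5 at r of 0.766 in the 42 pons libraries (rho 0.797, permutation p 1e-05 each, adjusted 9.5e-05, r without the 2 farthest 0.746) and at 0.452 in medulla (rho 0.435, permutation p 0.00043 and 0.00074, adjusted 0.0012 and 0.0020, r without the 2 farthest 0.504). The genes of the neuron list did not move together in pons, where Slc17a7 (0.905), Rbfox3 (0.756) and Snap25 (0.699) had positive correlations with Hoxb5 within the 42 libraries and the inhibitory neuron genes Gad1 (-0.630) and Gad2 (-0.739) negative ones. The telencephalon list, of which Emx1 had a median of 0 and Neurod6 made up most, correlated at 0.816 in pons (rho 0.780, permutation p 1e-05 each, adjusted 9.5e-05, r without the 2 farthest 0.776). In medulla the microglia list had an r of -0.601 (rho -0.613, permutation p 1e-05 each, adjusted 9.5e-05 and 4.7e-05, r without the 2 farthest -0.577) and the hindbrain neuron list -0.349 (rho -0.371, permutation p 0.0078 and 0.0041, adjusted 0.015 and 0.0096, r without the 2 farthest -0.376). Without the mice of 12 months the latter was -0.169. The list of retinoid and upstream genes had the lowest r in medulla, at -0.622 (rho -0.697, permutation p 1e-05 each, adjusted 9.5e-05 and 4.7e-05, r without the 2 farthest -0.653). In pons it had -0.421 (rho -0.398, permutation p 0.0054 and 0.0097, adjusted 0.026 and 0.037, r without the 2 farthest -0.437). The cofactor list was positively correlated in medulla, with r of 0.515 (rho 0.585, permutation p 5e-05 and 1e-05, adjusted 0.00019 and 4.7e-05, r without the 2 farthest 0.497). In pons it was negatively correlated, with -0.624 (rho -0.573, permutation p 2e-05 and 0.00014, adjusted 0.00013 and 0.00089, r without the 2 farthest -0.589).

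With age, members of groups 2 and 5 to 7 fell in medulla, and these calls were lost without the mice of 12 months. The Hox sum in medulla ran, by age, from 46.7 over 96.9 to 324 CPM at 3 months (n = 10), 95.7 over 190 to 402 at 12 (n = 9), 33.8 over 77.4 to 338 at 15 (n = 10) and 28.3 over 75.8 to 252 at 18 (n = 10). It ran from 22.9 over 58.9 to 123 at 21 (n = 11), 57.1 over 81.2 to 160 at 26 (n = 5) and 21.2 over 51.2 to 59.4 at 28 months (n = 3). The mice of 12 months had the highest median, and the ages overlapped except that every mouse of 12 months was above every mouse of 28. The medians of Hoxb5 were 13.6 CPM at 3 months, 58.2 at 12, 5.29 at 15, 5.43 at 18, 3.31 at 21, 4.43 at 26 and 3.08 at 28. Hoxd3 varied less, with medians of 16.1, 20.6, 14.6, 17.0, 15.3, 17.6 and 10.0.

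**Figure D5:**
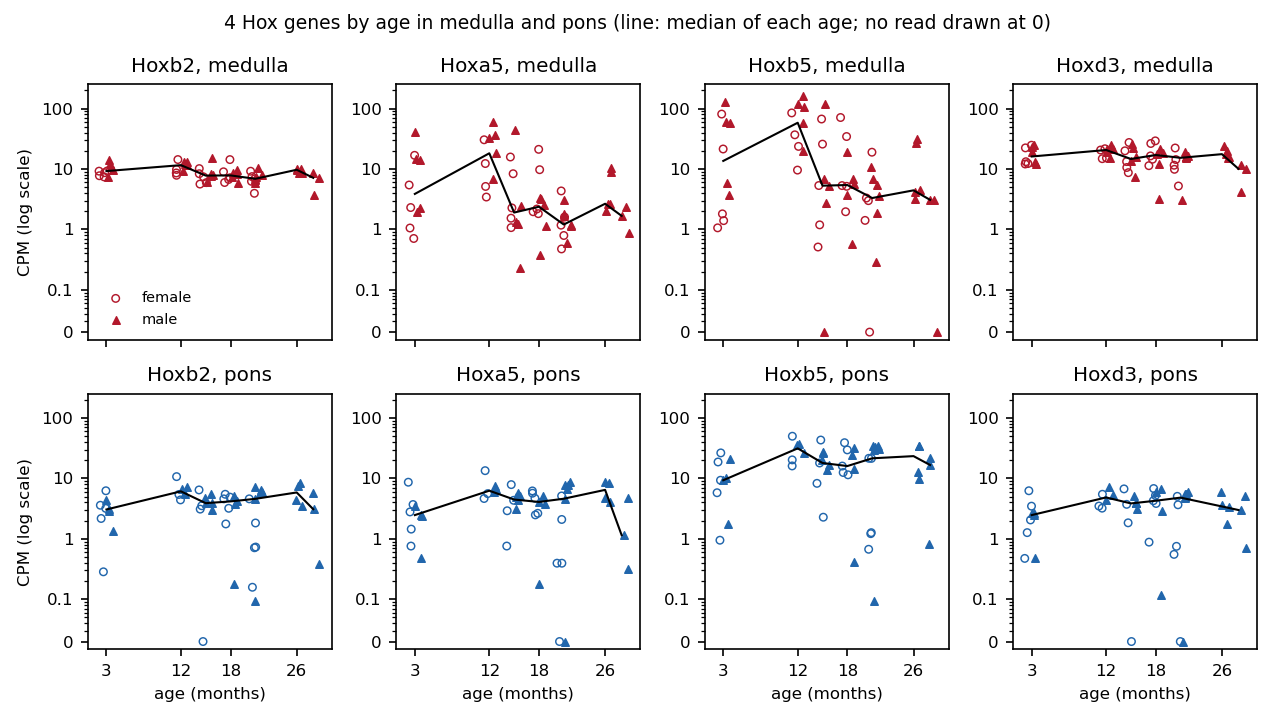
Hoxb2, Hoxa5, Hoxb5 and Hoxd3 in each medulla (upper row) and pons (lower row) library against age in months, in CPM on a log scale with libraries without a read drawn at 0; open circles are females, triangles males and lines join the medians of the ages. The medulla libraries of 12 months have the highest Hoxb5 median, 58.2, and those of 28 months the lowest, 3.08.

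By edgeR's quasi-likelihood test of the slope with age, 7 of 19 members tested fell in medulla and 0 rose, against 3.95% of genes that fell and 6.33% that rose. The slopes were -0.171 log2 per month for Hoxb7 (adjusted p 0.0023), -0.136 ± 0.039 (SE) for Hoxb5 (0.014), -0.114 for Hoxa5 (0.016), -0.093 for Hoxc5 (0.021), -0.128 for Hoxa6 (0.027), -0.140 for Hoxb6 (0.038) and -0.020 for Hoxb2 (0.047). Hoxb7 and Hoxa6 had no read in most medulla libraries and Hoxb6 was read in only part of them. The slopes of Hoxb7 and Hoxa6 therefore rest on few libraries. Hoxd3, the member with the highest median per length, had a slope of -0.017 (adjusted p 0.33), and Hoxd1 0.008 (0.87). Without the mice of 12 months 0 of 17 members were called. The Hoxb5 slope was then -0.103 (unadjusted p 0.0047, adjusted 0.061), that of Hoxa5 -0.081 (adjusted p 0.073) and that of Hoxc5 -0.070 (adjusted p 0.091), so these 3 kept their sign. In mice 16 to 56 alone 0 of 16 members were called, and the Hoxb5 slope was -0.118 (adjusted p 0.16). The mice of 12 and 26 months carry the numbers 1 to 15, those of 3, 15, 18 and 21 months 16 to 56 and those of 28 months 57 to 59, so that this age and the number series cannot be told apart fully. Hoxaas2 (-0.026, adjusted p 0.014) and Hoxb5os (-0.124, 0.017) also fell in medulla.

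The medulla libraries of 12 months also differed in markers, whose part in the fall was not tested. The summed hindbrain neuron list had a median of 240 CPM at 12 months (178 to 349) and 353 over the other ages (173 to 501), the telencephalon list 4.59 (2.07 to 6.99) against 2.01 (0.450 to 7.19), and the astrocyte list 743 (504 to 1409) against 1342 (588 to 2934). The ranges of all 3 lists overlapped. The microglia list rose over the ages, with 3 of 4 genes called, from a median of 158 CPM at 3 months to 238 at 21.

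In pons 0 of 13 members tested changed with age by edgeR, where 4.69% of all genes did, and 0 had an unadjusted p under 0.05. The Hox sum had medians of 38.2 CPM at 3 months, 86.4 at 12, 56.6 at 15, 50.0 at 18, 66.5 at 21, 65.1 at 26 and 47.2 at 28. The slope was not shown to differ between medulla and pons. In the test of that difference 0 of 13866 genes were called (0%). The difference in slope was -0.152 log2 per month for Hoxb5 (unadjusted p 0.0039, adjusted 0.57 by edgeR), -0.129 for Hoxa5 (0.0046, adjusted 0.57) and -0.094 for Hoxc5 (0.028, adjusted 0.65).

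No member was called between females and males of 3 to 21 months. In medulla the Hox sum ran from 25.5 over 77.6 to 252 CPM in 24 females and from 22.9 over 81.5 to 402 in 26 males, and in pons from 3.80 over 50.7 to 134 in 22 females and from 2.28 over 65.6 to 99.5 in 22 males. The sexes overlapped in both regions. None of 17 members was called in medulla by edgeR, where 22.5% of all genes were, and 2 had an unadjusted p under 0.05: Hoxa6, with a male minus female difference of 1.80 ± 0.70 (adjusted p 0.060), and Hoxb6, with 1.43 ± 0.67 (0.12). Hoxb5 had 0.39 ± 0.54 (adjusted p 0.66). In pons 0 of 13 were called, against 0.166% of all genes, and 0 had an unadjusted p under 0.05. Among mice 16 to 56 the males carry the numbers 16 to 36 and the females 37 to 56. Sex and the number series cannot be told apart in these mice.

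The partner and regulator genes of the Hox genes were compared between the same regions. Of the 9 Pbx, Meis and Pknox cofactor genes, all tested, 3 were higher in medulla than in pons (Meis2 by 1.12, Meis1 by 0.22 and Pknox1 by 0.20 on the log2 scale) and 3 lower (among them Pknox2 by -0.39 and Pbx3 by -0.26), with a list median of 0.02 (median of all genes tested -0.00208). Meis2 had a median of 137 CPM in medulla, 63.0 in pons and 3.52 in thalamus. Meis1, at 34.3 in medulla and 30.8 in pons, was highest of the 15 regions in cerebellum, at a median of 92.6, where Hox reads were few.

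Of 22 genes of the retinoid pathway and of upstream hindbrain regulators, 14 were tested, 6 were higher in medulla and 6 lower, with a median of -0.15. The retinoic acid binding protein gene Crabp1 (3.58) and the hindbrain-boundary gene Gbx2 (2.75) differed most, and Rxra (0.45), Cyp26b1 (0.43), which breaks retinoic acid down, and Rarb (0.16) were also higher. Aldh1a2, which makes retinoic acid (-1.34), Crabp2 (-1.27), Rara (-0.38), Rarg (-0.35), Aldh1a1 (-0.16) and Rxrb (-0.14) were lower. Gbx2 was highest in thalamus, at a median of 82.1 CPM, so that its level did not follow that of the Hox genes. The activators Cdx1, Cdx2 and Cdx4 had a median of 0 in all 15 regions.

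Of 15 Polycomb genes 1 was higher and 9 lower in medulla than in pons (median -0.16), and of 10 Trithorax genes 1 was higher and 7 lower (median -0.09), against 31.1% and 30.7% of all genes. With age in medulla, 1 Polycomb gene fell (Ezh2, -0.012 per month, adjusted p 0.025 by edgeR), 1 Trithorax gene rose (Kdm6a, 0.022, 0.015), 1 cofactor fell (Pknox1, -0.014, 0.00019) and 1 retinoid gene fell (Rarb, -0.018, 0.048).

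Over the 15 regions, the median of each gene was compared with that of the Hox sum, on log2(CPM + 0.1). Out of 14176 genes, those most like the Hox sum were Cga (r 0.962 over 15 regions) and Pax8 (0.937), followed by Lgmn (0.937) and Ndufv2 (0.928). Pax8, a transcription factor gene of the embryonic hindbrain and thyroid, had a median of 16.7 CPM in medulla, 3.46 in pons and 0 in cerebellum. Cga had 0.147 CPM in medulla, 0.113 in pons and 0 in the other 13 regions as medians. These lie near the 0.1 CPM added before the logarithm, so its r rests on very low values. Genes were compared if their mean over all libraries was at least 1 CPM, so Cga passed through libraries far above its medians. Lgmn was read in all regions, with medians of 357 in medulla, 342 in pons and at most 233 in others. These correlations describe 15 region values that share libraries.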

How the data were processed

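RNA of 15 brain regions of 59 mice was measured by bulk Smart-Seq2, 1 library per region and mouse. Per the labels' protocols, RNA was purified with RNeasy columns and libraries were made with Nextera XT without strand information. The deposited table holds raw read counts per gene and library. Per the submitters' processing notes, Trim Galore 0.3.7, STAR 2.5.3a and DESeq2 were used with the GRCm38 build, and the program that counted reads and its annotation are not given in the sources used here. Gene coordinates and exon lengths came from a GRCm38 annotation and upstream windows from RefSeq (GRCm38.p6).

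From the counts, CPM per library was computed over all 21076 genes. Comparisons were fitted on the counts with edgeR 4.0.16 (R 4.3.3) by its quasi-likelihood test with TMM factors, filterByExpr and Benjamini-Hochberg adjustment over all genes tested at 0.05. Region comparisons had sex and age as covariates, age slopes had sex, and sex differences had age as a factor. Each was tested on simulated data with 200 changed genes. In the simulated comparison of medulla and pons (13866 genes) 100% of the changed genes were recovered, and in that of age in medulla 92.5%. Correlations were tested with 100000 permutations, or exactly under 10 libraries (Python 3.11.15, scipy 1.17.1). The permutations disregarded age and sex. Levels per length are CPM divided by kilobases of exon.

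The same mouse number marks the same animal, so numbers pair the regions. Deviations from the region means correlated between medulla and pons of a mouse with a median r of 0.136 over 51 mice, against -0.0076 between different mice. Region comparisons were also run with the mouse as a block, over mice with both regions. Within a region each library came from another mouse, so libraries are biological replicates.

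Members were named by paralogue group, and for age and sex each member past the threshold and those with the highest levels. Genes of the other lists were named where they passed the threshold. Some genes are counted in the totals and lists but are not reported singly here. Genes most like Hoxb5 in a region were singled out after their values were seen. The members and the lists were chosen with earlier results of these data known. Alternatives were DESeq2 1.42.0, RLE factors, no filter, leaving out each of 12 mice in turn, mice 16 to 56 alone, depth as a covariate, motor cortex as the reference, and males or mice of 12 months alone. The alternatives without mice of 12 months, without libraries nearest to another region and with only mice that had both regions were chosen after seeing the data. Counting limits shrink with depth, which ran from 481444 to 26756735 reads per library.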

Additional observations from a re-analysis of the deposited data

Results flagged for a closer look

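Among 20 groups of 4 to 6 libraries of 1 region, sex and age, 2 had a library far from the others in the Hox sum, where chance alone flags about 1 in 20 groups. In medulla, mouse 26 was the highest of the 5 males of 15 months, with 337.8 CPM. The next library of the group had 81.53 and the lowest 33.75. In pons, mouse 32 was the lowest of the 6 males of 21 months, with 2.279 CPM, while the next had 79.61 and the highest 98.32. The pons library of mouse 32 is among the 9 with low Hoxb5, at 0.0950 CPM.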

How the results depend on the processing

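Depth limits the members of groups 6 to 13, whose reads were few. Counts of members under the alternatives below are given without the share of all genes called in the same setting. They are therefore not read as a result about the members. Without the filter on low counts, 20 members were higher in medulla than in pons, 24 than in cerebellum and 24 than in thalamus (2 lower). In pons 19 members were then higher than in cerebellum (3 lower) and 18 than in thalamus (3 lower), 1 was higher and 1 lower in cerebellum than in thalamus, and 2 were higher and 3 lower in choroid plexus than in thalamus. Without it 1 member, Hoxd9, rose with age in medulla, and 3 differed between the sexes there.
In mice 16 to 56 alone, 3 members were higher in pons than in cerebellum, since fewer members passed the filter, and 0 fell with age in medulla. Without mice of 12 months, 0 fell. In the mice with both regions alone, which leaves out 7 medulla libraries, 9 members were higher in medulla than in pons and Hoxb5 differed by 0.07 (log2). With a replicate block (the mouse) over the same libraries, 9 were higher and Hoxb5 had -0.637, and neither setting changed another count of members called. Leaving out each of 12 mice in turn gave 5 to 8 members that fell with age in medulla, and 0 to 2 that differed between the sexes there (2 without mouse 1 and 1 without mouse 17). The other counts of members called kept their values when 1 mouse was left out. With DESeq2, 10 members were higher in medulla than in pons and 5 fell with age in medulla. No relation between medulla and pons of a mouse passed the threshold under any of the 6 alternatives (0 each). Of the 18 relations of Hoxb5 with members in medulla, 17 were past the threshold without mice of 12 months, and 17 in mice 16 to 56 alone. Why these values moved was not tested beyond the smaller samples.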
